A study of Mus musculus with 8 samples.

Results

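Chaperone and endoplasmic reticulum (ER) protein folding genes were examined in subcutaneous white adipose tissue (sWAT) of mice kept on calorie restriction (CR) and of mice fed ad libitum (AL). The genes were taken by their symbols alone: the Hsp, Dnaj, Cct, Fkbp, Pdia, Sec61 and Ssr families, with Calr, Canx, Hyou1, Herpud1, Herpud2, Xbp1, Atf4, Atf6, Atf6b, Ddit3 and Asns. This gave 77 of the 50952 genes in the table. All mice were wild-type C57BL/6J, restriction lasted 6 months, from 3 to 9 months of age, and tissue was taken at 9 months. According to the labels 8 mice were used, 4 on each diet. The analysis used 7 libraries, AL2, AL3 and AL4 of the AL group and CR1 to CR4 of the CR group. The tissue is whole fat, in which fewer cells of a type and less RNA per cell cannot be told apart.

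Most secreted and membrane proteins of an adipocyte enter the ER through the Sec61 channel, where HSP70 and HSP90 chaperones, the lectin chaperones calnexin and calreticulin, and disulfide isomerases fold them. When unfolded protein collects there, the sensors of the unfolded protein response raise transcription of these folding genes, and ATF6 is one of these sensors. In the cytosol, HSP70 with its J-domain partners, HSP90, small heat shock proteins and the CCT chaperonin, a ring that folds actin and tubulin, do the corresponding work. Adipocytes secrete large amounts of adipokines and matrix proteins, so the ER part of this machinery carries a heavy load in fat.

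Values are TPM, a level per transcript length and per library total. Adipocyte markers were abundant, and 7 of the 11 fixed markers had a row, with summed levels of 89517 to 105460 TPM in AL and 70393 to 81154 TPM in CR. Cfd alone held 51723 to 62269 TPM in AL and 37496 to 42836 TPM in CR. As deposited Cfd, Car3, Adipoq and Plin1 were each lower in every CR library, while Cidec, Pparg and Lep overlapped between diets. None of the 8 fibroblast markers had a row and the single macrophage marker with one, Itgam, was at or near 0, so those cells could not be followed. The summed level of 5 endothelial markers was 321 to 365 TPM in AL and 248 to 306 TPM in CR, and its part in the results was not tested. The rows analysed here, which have no deposited false discovery rate under 0.05, held 49.0% to 53.1% of the TPM total in AL libraries and 42.9% to 45.0% in CR libraries. Across the 9883 genes tested the median log2 change, CR minus AL, was −0.20 on the deposited scale. Changes are therefore also given relative to that shift, after dividing every library by its median ratio to the typical library. They are then called relative changes, with a median over all tested genes of −0.01. After scaling the summed adipocyte markers overlapped, at 84371 to 93830 TPM in AL and 73873 to 84871 TPM in CR. Cfd alone of the 7 did not overlap, with a relative change of −0.31. Those of Plin1, Adipoq, Car3, Lep, Pparg and Cidec were −0.14, −0.14, −0.06, −0.06, 0.19 and 0.22.

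AL3 stood apart in Bhlhe40, a clock gene at 14.0 TPM there and 113 to 158 TPM in the other 6 libraries, so counts are also given without AL3. It was the highest library for 25 of 70 chaperone and folding genes as deposited and for 13 after scaling. AL3 was the lowest library for 6 of the 70 as deposited and for 21 after scaling, the most of any library.

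Of the 77 genes, 70 passed the filter of at least 1 TPM in at least 4 libraries. On the deposited scale 13 of these 70 were lower in CR at an adjusted p under 0.05 (18.6%), against 17.6% of all tested genes, and 0 were higher, against 0.546%. The 13 were Pdia3, Pdia5, Pdia6, Calr, Dnajc10, Herpud1, Herpud2, Atf6, Fkbp14, Fkbp15, Hspa12a, Hspa12b and Dnajc8. The count was 6 without AL3, without CR1 and without CR2. In these omissions the count over all tested genes also fell, from 1742 of 9883 to 693 of 9484, 745 of 9581 and 650 of 9588. The calls of Pdia3, Pdia6, Dnajc10, Herpud1, Herpud2 and Hspa12b were kept in all 7 omissions of 1 library. Single-gene exact permutation tests, two-sided over 35 assignments, gave the smallest p they allow, 0.0286, for 11 of the 13 and 0.0571 for Pdia5 and Fkbp15. As relative changes none of the 70 was called in either direction by limma (smallest adjusted p 0.0717). Of all genes 0.0506% were called higher and 0% lower. Genes with a deposited false discovery rate under 0.05 were not among those tested, so the 0 cannot show that no such gene changed. At an unadjusted p under 0.05, 24 of the 70 were relatively higher (34.3%), against 15.8% of all genes, and 11 were relatively lower (15.7%), against 13.2%. Libraries did not overlap between diets after scaling for 24 genes higher in CR, against 13.9% of all genes, and for 9 lower, against 12.7%. Counted by unadjusted p (threshold 0.05) and not by overlap, the scaled fit without AL3 had 23 of 69 genes relatively higher and 9 relatively lower. In that fit 2306 of all 9484 genes passed this threshold in either direction. The median log2 change of the 70 was −0.11 as deposited and 0.11 as a relative change.

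**Figure D1:**
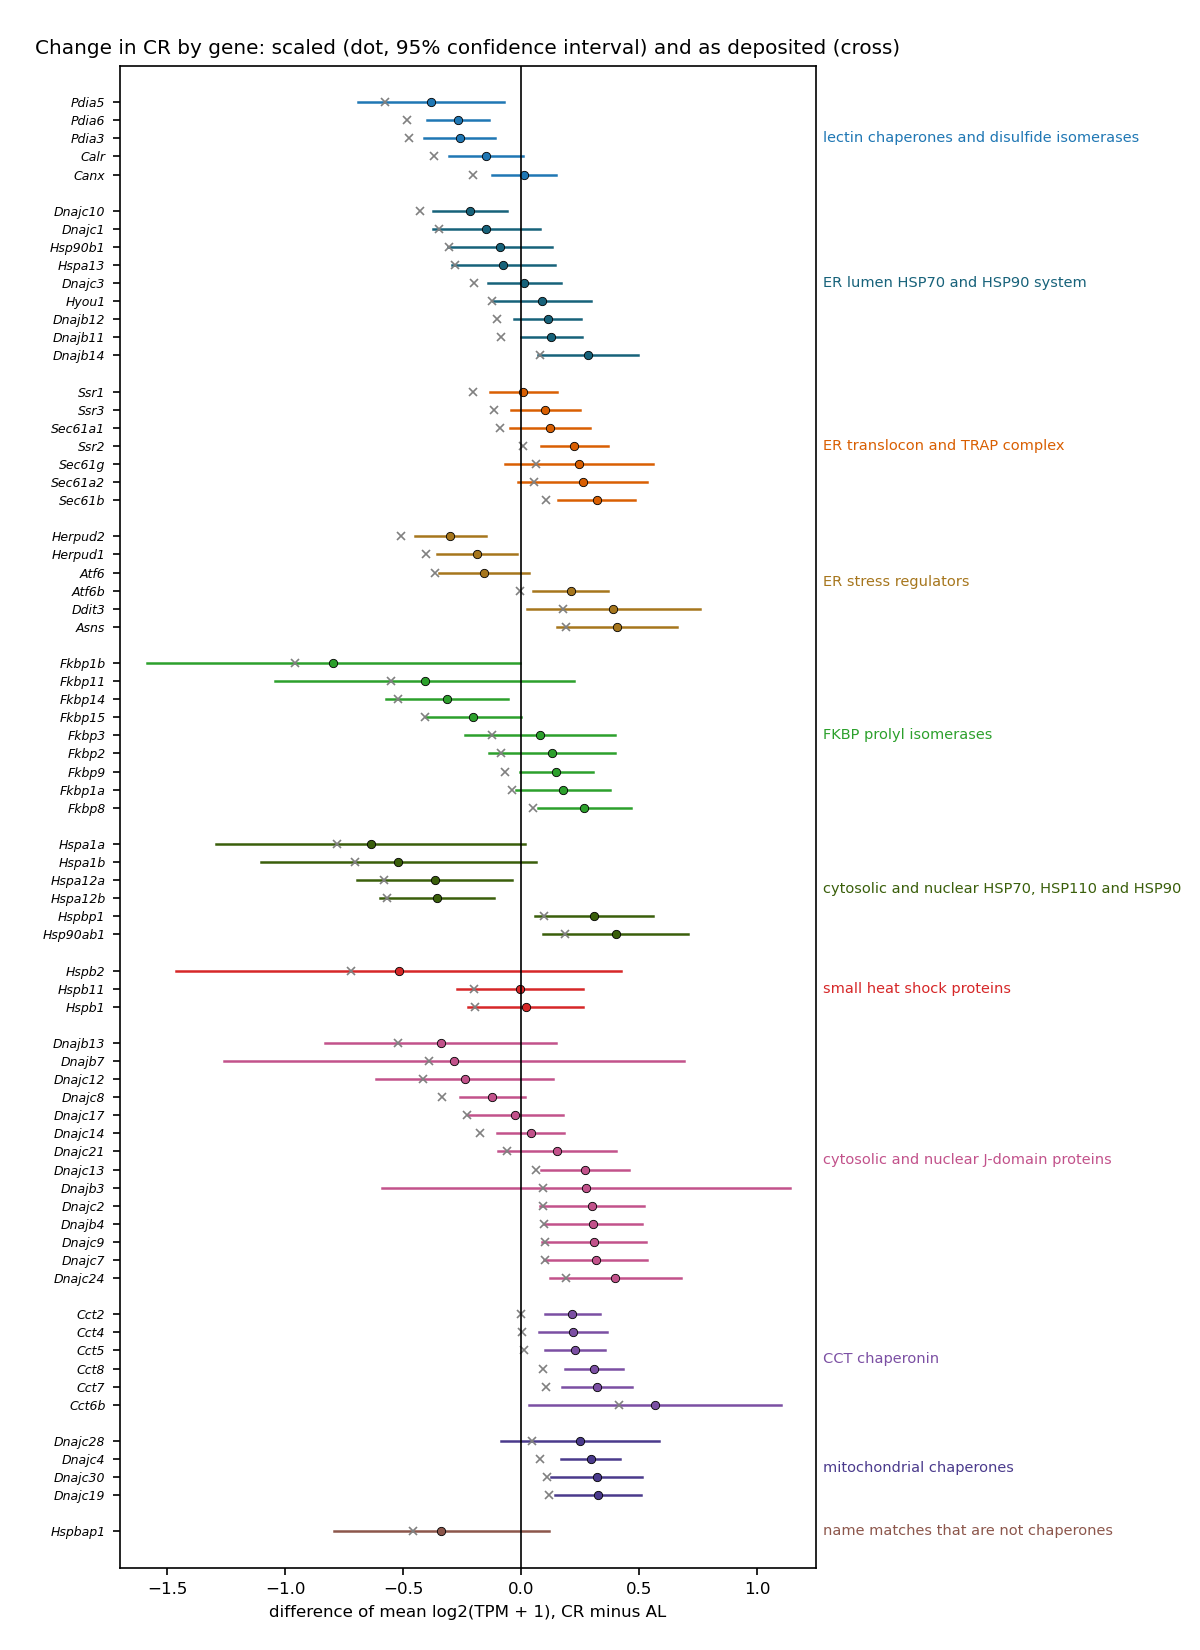
Change of each of the 70 tested genes in CR, by role, as the difference of mean log2(TPM + 1), CR minus AL, on the x axis. Dots and lines are relative changes with 95% confidence intervals and crosses are changes on the deposited scale. Disulfide isomerases lie to the left of 0 and CCT subunits to the right of it on both scales, with most CCT crosses close to 0.

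The lectin chaperones and disulfide isomerases had the lowest median change of the ER groups. Of 5 tested genes 4 were lower in CR on the deposited scale, against 17.6% of all tested genes. The median log2 change of the 5 was −0.48 as deposited and −0.26 as a relative change. Pdia3, the isomerase that works with calnexin and calreticulin on glycoproteins, stood at 325, 408 and 324 TPM in AL and at 252, 242, 256 and 256 TPM in CR. Every CR library lay below every AL library, and the CR values were close together while AL3 stood well above the other AL libraries. The log2 change of Pdia3 was −0.48 ± 0.09 (SE, n = 3 AL and 4 CR; limma, adjusted p = 0.0156), and its relative change was −0.26 (95% confidence interval −0.41 to −0.11).

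Pdia6, a disulfide isomerase that also binds the ER HSP70, was at 197, 224 and 203 TPM in AL and at 138, 143, 159 and 155 TPM in CR. The diets did not overlap, and the log2 change was −0.48 ± 0.07 (SE; limma, adjusted p = 0.0136). Its relative change was −0.27 (95% confidence interval −0.40 to −0.14), with an adjusted p of 0.0717. Pdia5, a rarer isomerase, measured 10.6, 12.7 and 10.8 TPM in AL against 8.05, 6.00, 8.85 and 6.52 TPM in CR, again without overlap. Its log2 change was −0.58 ± 0.14 (SE; limma, adjusted p = 0.0305) and its relative change −0.38 (95% confidence interval −0.69 to −0.07), but the call was kept in only 1 of the 7 omissions, that of CR3. Pdia2, an isomerase of the pancreas, was listed at 0 in all 7 libraries.

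The lectin chaperones were read side by side. Calr, the soluble lectin chaperone, reached 636, 798 and 704 TPM in AL and 527, 523, 587 and 565 TPM in CR, with a log2 change of −0.37 ± 0.09 (SE; limma, adjusted p = 0.0279) and a relative change of −0.15 (95% confidence interval −0.31 to 0.01). The call of Calr was lost without AL3, CR1, CR2 or CR4. Canx, its membrane-bound relative, measured 256, 293 and 246 TPM in AL against 212, 224, 240 and 242 TPM in CR, and was not called (log2 change −0.20 ± 0.08, limma, adjusted p = 0.107). The relative change of Canx was 0.01 (95% confidence interval −0.12 to 0.15). Without AL3, CR1, CR2 or CR4, each left out in turn, 2 of the 5 genes of this group were called. Over all tested genes these omissions lowered the count called lower from 1742 to 693, 745, 650 and 1145.

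Other ER enzymes of oxidative and glycoprotein folding were read from a separate list of 36 genes, of which 20 were tested. On the deposited scale 9 of the 20 were lower in CR and 0 higher, against 17.6% and 0.546% of all tested genes. As relative changes 8 were lower and 4 higher (unadjusted p under 0.05), against 13.2% and 15.8%. P4hb, the most studied disulfide isomerase and a subunit of collagen prolyl 4-hydroxylase, measured 541, 598 and 540 TPM in AL and 385, 386, 448 and 390 TPM in CR. Its log2 change was −0.48 ± 0.08 (SE; limma, adjusted p = 0.0136) and its relative change −0.26 (95% confidence interval −0.41 to −0.11). Crtap, part of the complex that hydroxylates collagen prolines, was at 136 to 160 TPM in AL and 99.3 to 112 TPM in CR, a log2 change of −0.46 ± 0.08 (SE; limma, adjusted p = 0.0136) and a relative change of −0.25. The other 7 called genes, listed after their values were seen, were Erp29, Ppib, Prdx4, P3h4, Man1b1, Sil1 and Tmx3.

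**Figure D2:**
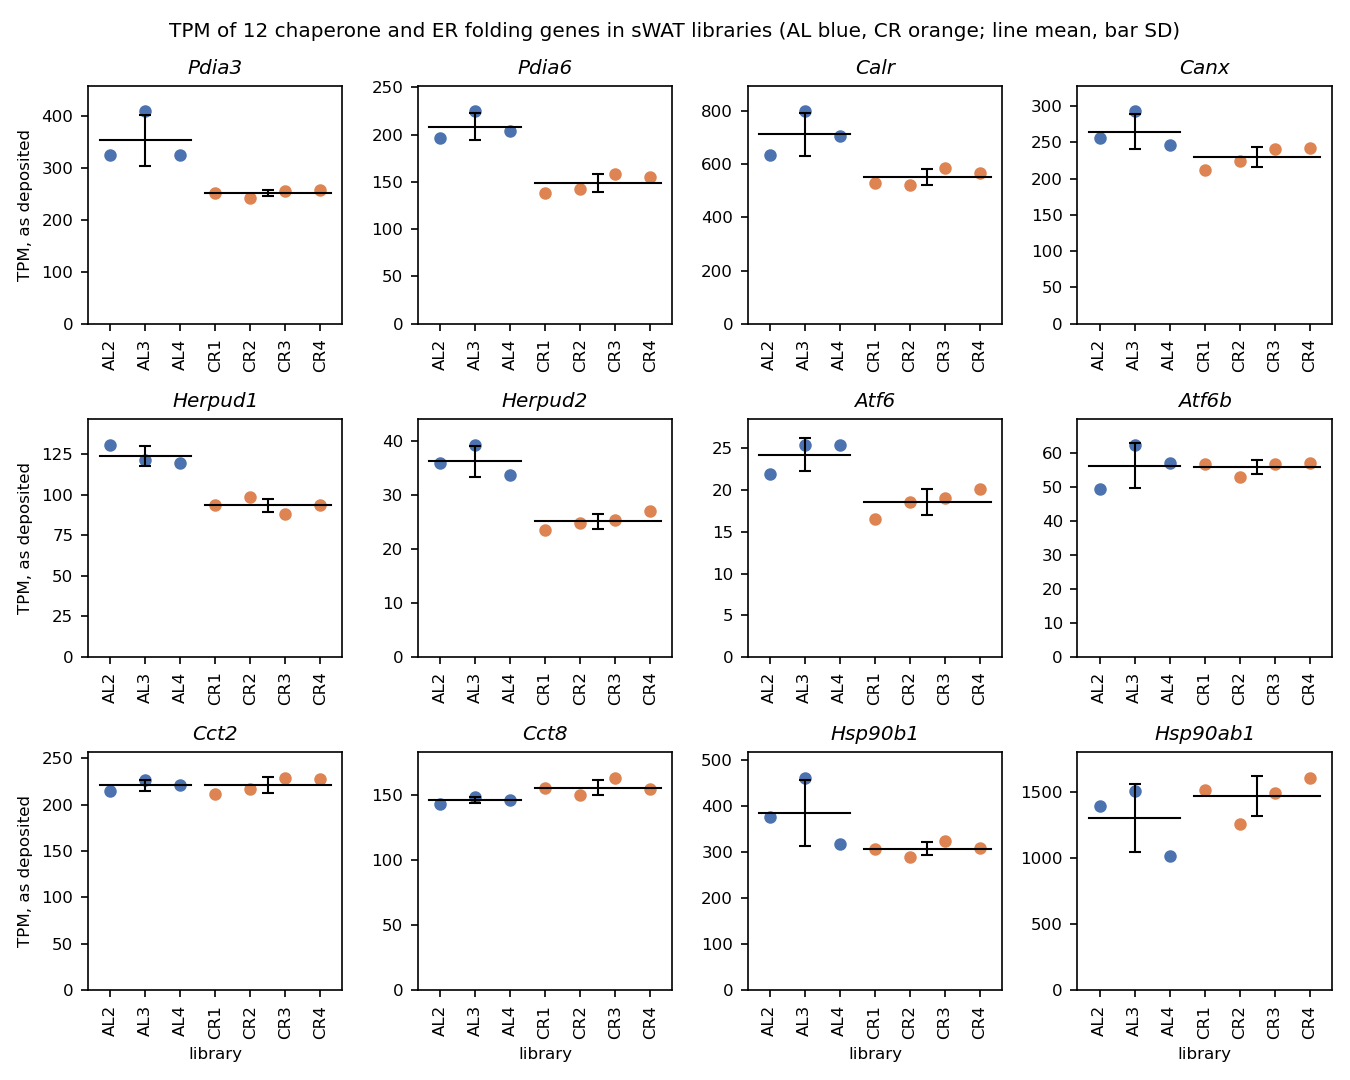
TPM as deposited of 12 genes in each library, 1 panel per gene, with AL libraries in blue and CR libraries in orange, the line at the group mean and the bar 1 SD. Pdia3, Pdia6, Calr, Herpud1, Herpud2 and Atf6 lie lower in every CR library than in every AL library, and Cct2 and Hsp90ab1 overlap.

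Promoter stretches are shown for ER folding genes that hold the response element read by ATF6 and XBP1, since these genes are described together here. RefSeq windows (GRCm38.p6) from 250 bases before to 50 after the start of the gene were available for 65 of the 77 genes. The ER stress response element, CCAAT and CCACG with 9 free bases between them, searched on both strands, was in 5 of 65 windows (7.69%), against 37 of 27025 genes (0.137%). Its shorter form, ATTGG and CCACG with 1 free base between them, where ATTGG is CCAAT read on the other strand, was in 2 of 65 (3.08%), Herpud1 and Dnajb11, against 12 of 27025 genes (0.0444%). CCAAT alone was in 43.1% of the members and 41.1% of all genes. The match of Dnajb11 begins downstream of the start of the gene and is not printed. Each line below is read 5′ to 3′ along the gene, with 30 bases on each side and the fixed letters of the element in capitals.
Calr (chr8:84847045-84847123, minus strand): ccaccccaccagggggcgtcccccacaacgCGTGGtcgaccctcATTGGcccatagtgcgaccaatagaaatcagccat
Canx (chr11:50325770-50325848, minus strand): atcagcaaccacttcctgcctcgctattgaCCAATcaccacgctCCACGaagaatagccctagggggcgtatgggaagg
Pdia6 (chr12:17266461-17266539, plus strand): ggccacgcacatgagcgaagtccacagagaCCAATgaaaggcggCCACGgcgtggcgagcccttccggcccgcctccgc
Hsp90b1, upstream match (chr10:86705608-86705686, minus strand): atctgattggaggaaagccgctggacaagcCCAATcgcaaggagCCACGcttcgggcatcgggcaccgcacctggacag
Hsp90b1, downstream match (chr10:86705503-86705581, minus strand): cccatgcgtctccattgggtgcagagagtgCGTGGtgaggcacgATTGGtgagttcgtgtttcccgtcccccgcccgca
Dnajc3 (chr14:118937797-118937875, plus strand): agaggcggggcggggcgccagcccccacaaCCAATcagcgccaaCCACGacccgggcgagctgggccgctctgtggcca
Herpud1, shorter form (chr8:94386347-94386417, plus strand): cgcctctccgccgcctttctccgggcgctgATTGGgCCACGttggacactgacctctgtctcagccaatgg

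As deposited all 7 genes that carry an element had a change below 0, on a scale where the median of all 9883 tested genes was −0.20. As relative changes the directions of the 7 differed. Calr, Pdia6 and Herpud1 were among those called lower on the deposited scale, while Canx, Hsp90b1, Dnajc3 and Dnajb11 were not called. Their relative changes ran from −0.27 (Pdia6) to 0.13 (Dnajb11), and those of Canx and Dnajc3 were both 0.01. The windows of Pdia3, Herpud2 and Atf6 held no match with these letters. The heat shock element (GAA, TTC and GAA with 2 free bases between neighbours) and the amino acid response element TGATGCAAT were in 0 of 65 windows, against 0.662% and 0.222% of all genes, and TGACGTGG, a site bound by ATF6, was in 1 (Fkbp1b, 1.54%) against 0.714%. Elements with other letters or outside these windows were not searched, so the genes may still hold them.

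Of the ER HSP70 and HSP90 system, Hsp90b1 encodes GRP94, the HSP90 of the ER. Its level was 376, 462 and 318 TPM in AL and 307, 290, 325 and 310 TPM in CR. The diets overlapped, AL3 was the highest library, and the log2 change of −0.31 ± 0.12 (SE; limma, adjusted p = 0.101) was not called. The relative change of Hsp90b1 was −0.09 (95% confidence interval −0.31 to 0.13). Hyou1, the exchange factor of the ER HSP70, was also highest in AL3, at 47.5 TPM, and lay between 32.8 and 40.8 TPM in the other 6 libraries, with a relative change of 0.09 (95% confidence interval −0.12 to 0.30) and a change of −0.12 on the deposited scale. Hspa5, the ER HSP70 itself, was not analysed here.

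The J-domain proteins grouped with the ER HSP70 and HSP90 system differed among themselves. In this group 1 of 9 tested genes was called lower, against 17.6% of all tested genes. It was Dnajc10, a J-domain protein that reduces disulfides of misfolded proteins before their export. It stood at 39.5, 41.5 and 35.2 TPM in AL and 29.2, 29.0, 28.1 and 27.7 TPM in CR, without overlap. The log2 change of Dnajc10 was −0.43 ± 0.07 (SE; limma, adjusted p = 0.0143) and the relative change −0.22 (95% confidence interval −0.37 to −0.06). Dnajb14, a J-domain protein of the ER membrane, was relatively higher by 0.28 (95% confidence interval 0.07 to 0.50), with 13.4 to 14.8 TPM in AL and 14.2 to 16.0 TPM in CR. The median relative change of the 9 genes was 0.01.

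The translocon and the TRAP complex, through which proteins enter the ER, had 7 tested genes and 0 calls on either scale. At an unadjusted p under 0.05, 2 of the 7 were relatively higher and 0 lower, against 15.8% and 13.2% of all genes. On the deposited scale 1 was lower and 0 higher at that threshold, against 3491 of 9883 tested genes in either direction. All 7 relative changes were above 0, from 0.01 to 0.32, while on the deposited scale Ssr1, Ssr3 and Sec61a1 were below 0. Sec61b, the small beta subunit of the channel, measured 80.0, 80.3 and 81.4 TPM in AL and 86.0, 92.1, 89.8 and 79.5 TPM in CR. As deposited CR4 lay below the AL libraries, and after scaling every CR library of Sec61b was above every AL library, with a relative change of 0.32 (95% confidence interval 0.16 to 0.48; limma, adjusted p = 0.0732). Ssr3, the most abundant of the group, lay between 174 and 193 TPM in AL and 161 and 176 TPM in CR, and its relative change was 0.10 (95% confidence interval −0.04 to 0.25). A list of 23 tested genes of ER import, signal peptidase and N-glycosylation had 7 genes lower on the deposited scale and 0 higher, against 17.6% and 0.546% of all genes. As relative changes 1 of the 23 was lower and 8 were higher at an unadjusted p under 0.05, against 13.2% and 15.8%. The median relative change of the 23 was 0.05. Of the 7, Ddost, a subunit of the oligosaccharyltransferase, was at 185 to 195 TPM in AL and 140 to 159 TPM in CR, with a log2 change of −0.36 ± 0.06 (SE; limma, adjusted p = 0.0143) and a relative change of −0.14.

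Of 6 regulators and targets of the ER stress response, 3 were lower in CR on the deposited scale, against 17.6% of all tested genes. The other 3 were not called. Herpud1, an ER membrane protein that recruits factors of ER-associated degradation, measured 131, 122 and 119 TPM in AL against 93.9, 98.4, 88.3 and 93.5 TPM in CR. Herpud2, its paralog, was at 35.9, 39.4 and 33.7 TPM in AL and 23.6, 24.8, 25.3 and 27.0 TPM in CR. Both were lower in every CR library than in any AL library, with log2 changes of −0.40 ± 0.06 and −0.51 ± 0.08 (SE; limma, adjusted p = 0.0136 for both). The relative changes were −0.19 (95% confidence interval −0.36 to −0.02) for Herpud1 and −0.30 (−0.45 to −0.15) for Herpud2. Atf6, the membrane-bound transcription factor that senses unfolded protein, was at 21.9, 25.4 and 25.4 TPM in AL and 16.5, 18.6, 19.1 and 20.2 TPM in CR. Its log2 change was −0.37 ± 0.09 (SE; limma, adjusted p = 0.0327), its relative change was −0.16 (95% confidence interval −0.35 to 0.03), and the call was kept without AL2 and without CR4 only.

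Among the 3 that were not called, Atf6b, the paralog of Atf6, stood at 49.3, 62.5 and 57.1 TPM in AL and 56.8, 52.9, 56.8 and 57.0 TPM in CR. It had a relative change of 0.21 (95% confidence interval 0.05 to 0.37) and no difference beyond its error as deposited (−0.00 ± 0.08, SE). Asns, asparagine synthetase and a target of ATF4, measured 180, 181 and 224 TPM in AL and 212, 227, 246 and 202 TPM in CR. The diets overlapped as deposited and not after scaling, with a relative change of 0.41 (95% confidence interval 0.15 to 0.66; limma, adjusted p = 0.0826). Ddit3, which encodes the stress factor CHOP, ranged from 38.1 to 54.2 TPM in AL and from 42.8 to 60.0 TPM in CR, with a relative change of 0.39 (95% confidence interval 0.03 to 0.76), and its diets overlapped on both scales. Xbp1 and Atf4 were not analysed here. Among 15 tested ATF4 amino acid response genes 5 were lower on the deposited scale and 0 higher, against 17.6% of all genes lower. As relative changes 2 of these were lower and 4 higher (unadjusted p under 0.05), against 13.2% and 15.8% of all genes. Their median relative change was −0.02. The smallest adjusted p was that of Shmt2, a mitochondrial serine-to-glycine enzyme, at 20.9 to 22.9 TPM in AL and 13.9 to 15.6 TPM in CR (log2 change −0.52 ± 0.08, limma, adjusted p = 0.0136; relative change −0.32).

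Other ER stress sensors and targets numbered 15 tested genes. On the deposited scale 4 were lower and 0 higher, again against 17.6% of all genes lower. As relative changes 2 were lower and 4 higher (unadjusted p under 0.05), against 13.2% and 15.8% of all genes. Mbtps1, the Golgi protease that cleaves ATF6, was at 39.8, 45.1 and 43.6 TPM in AL and 26.9, 29.2, 31.1 and 29.9 TPM in CR, without overlap. Its log2 change was −0.53 ± 0.08 (SE; limma, adjusted p = 0.0136) and its relative change −0.32 (95% confidence interval −0.47 to −0.17). Creb3, a membrane-bound factor cleaved by the same route, had a log2 change of −0.30 ± 0.07 (SE; limma, adjusted p = 0.0319) and a relative change of −0.08 (95% confidence interval −0.26 to 0.10). In ER-associated degradation 4 of 17 tested genes were lower on the deposited scale and 0 higher, against the same 17.6% of all genes. The relative changes of these 17 had a median of 0.09. At an unadjusted p under 0.05, 1 was lower and 5 higher, against 13.2% and 15.8% of all genes. Among the 4 was Edem3, a mannosidase that marks misfolded glycoproteins, with a log2 change of −0.50 ± 0.11 (SE; limma, adjusted p = 0.0210) and a relative change of −0.29. Os9, the lectin that reads that mark, had a log2 change of −0.35 ± 0.08 (SE; limma, adjusted p = 0.0217) and a relative change of −0.13 (95% confidence interval −0.27 to 0.02).

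FKBP proteins turn proline bonds and sit in both compartments. Of 9 tested genes 2 were lower in CR on the deposited scale, against 17.6% of all tested genes. Fkbp14, which acts on procollagen in the ER, measured 18.9, 23.9 and 24.0 TPM in AL and 14.5, 13.3, 15.3 and 17.7 TPM in CR (log2 change −0.52 ± 0.12, limma, adjusted p = 0.0260; relative change −0.31). Fkbp15, a protein of early endosomes, measured 17.8, 21.3 and 18.1 TPM in AL and 13.0, 13.7, 16.2 and 13.7 TPM in CR (log2 change −0.41 ± 0.10, limma, adjusted p = 0.0331; relative change −0.20). Each call depended on single libraries: Fkbp14 was kept without AL2 and without CR4, and Fkbp15 without AL2, without AL4 and without CR3. Fkbp9, an abundant ER member, was at 363 to 418 TPM in AL and 334 to 391 TPM in CR, with a change of −0.07 as deposited and of 0.15 as a relative change (95% confidence interval −0.00 to 0.30). Fkbp1b, the calcium channel partner FKBP12.6, had few reads (3 in the lowest library) and 3.21 to 7.40 TPM in AL against 0.983 to 3.29 TPM in CR, and its diets overlapped. Relatively, 3 FKBP genes were lower and 1 higher at an unadjusted p under 0.05, against 13.2% and 15.8% of all genes. The 3 became 0 without AL4 and 1 without AL2, AL3, CR1, CR2 or CR4.

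In the cytosol the HSP70 and HSP90 genes divided. Hsp90ab1, the constitutive HSP90, was the most abundant gene of all 77, at 1393, 1507 and 1015 TPM in AL and 1515, 1258, 1495 and 1606 TPM in CR. The diets overlapped, AL4 was the lowest library, and no call was made (log2 change 0.18 ± 0.15, limma, adjusted p = 0.398). Its relative change was 0.40 (95% confidence interval 0.09 to 0.71). Hspa12b, an atypical HSP70 of endothelial cells, was at 52.0, 70.9 and 50.1 TPM in AL and 40.7, 39.6, 37.3 and 34.9 TPM in CR. Its log2 change was −0.57 ± 0.12 (SE; limma, adjusted p = 0.0212) and its relative change −0.36 (95% confidence interval −0.60 to −0.11). In the authors' deposited table its FDR of 0.0519 was the lowest of the 77 genes. For the other called genes the authors' FDR ran from 0.0801 (Herpud2) to 0.584 (Dnajc8). Hspa12a, its paralog, measured 41.6, 47.6 and 63.4 TPM in AL and 32.5, 29.8, 37.0 and 33.9 TPM in CR, a log2 change of −0.58 ± 0.14 (SE; limma, adjusted p = 0.0282) that was not called without AL3, CR1, CR2 or CR4. The relative change of Hspa12a was −0.37 (95% confidence interval −0.70 to −0.04). The summed level of the endothelial markers given above was also lower in every CR library than in every AL library as deposited, although Kdr and Emcn alone overlapped between diets. After scaling the sums were 323, 315 and 301 TPM in AL and 331, 317, 259 and 264 TPM in CR and overlapped, while Hspa12b did not overlap. By marker the relative changes were −0.33 (Tek), −0.22 (Pecam1), −0.09 (Cdh5), 0.06 (Emcn) and 0.20 (Kdr). Of these markers Pecam1 alone did not overlap after scaling. The part of these markers in the change of Hspa12b was not tested.

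The heat-inducible HSP70 genes were expressed at a low level. Hspa1b measured 6.06, 11 and 5.29 TPM in AL and 4.70, 2.44, 4.42 and 4.78 TPM in CR, and Hspa1a 2.704, 4.31 and 1.65 TPM in AL and 0.996, 0.823, 0.957 and 2.14 TPM in CR. AL3 was the highest library for both. Neither was called (log2 change −0.70 ± 0.27 and −0.78 ± 0.30, SE; limma, adjusted p = 0.104 and 0.103), and their relative changes were −0.52 and −0.64. Their coding sequences are nearly identical, so the split of reads between them is uncertain.

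The 3 tested genes grouped by symbol as small heat shock proteins, Hspb1, Hspb2 and Hspb11, gave 0 calls on either scale. On each scale 0 of the 3 passed an unadjusted p under 0.05. Of 9883 tested genes 3491 passed it in either direction as deposited and 2865 after scaling. Hspb1, known as HSP25 in mouse, was at 103, 108 and 84.7 TPM in AL and 83.4, 81.3, 78.1 and 102 TPM in CR, with a relative change of 0.02 (95% confidence interval −0.23 to 0.26) and a change of −0.20 as deposited. Hspb2, a muscle-enriched member, measured 33.7, 12.6 and 23.2 TPM in AL and 24.2, 11.1, 9.28 and 10.03 TPM in CR, and the diets overlapped. AL2, the highest library for Hspb2, was also the highest for Hspb3, another muscle member, at 9.67 TPM against at most 0.428 TPM elsewhere. Myh1, a skeletal muscle myosin, was at 64.2, 3.41 and 1.59 TPM in AL and 7.82, 0.346, 0.325 and 9.80 TPM in CR. AL4 and CR1, next to AL2 in Hspb2, were thus low in Myh1. The part of Myh1 in these values was not tested. Of the exons of Hspb2, 30.2% overlap those of Cryab on the other strand, and the strand setting of the counting is not given in the sources used here.

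All 6 CCT subunits with a row were relatively higher in CR at an unadjusted p under 0.05, against 15.8% of all genes. After scaling every CR library lay above every AL library for all 6, against 13.9% of all genes. The count by p was 5 to 6 when 1 library was left out, and the median relative change was 0.27. As deposited the 6 were near equal or slightly higher in CR, with a median of 0.05, 0 calls and 0 at an unadjusted p under 0.05. That threshold was passed as deposited by 3491 of 9883 tested genes in either direction. Cct2, the most abundant subunit, was at 215, 226 and 222 TPM in AL and 211, 217, 229 and 228 TPM in CR. Its relative change was 0.22 (95% confidence interval 0.10 to 0.33; limma, adjusted p = 0.0750). Cct8, chosen after its values were seen because its relative change had the smallest p of the 70 genes, measured 144, 149 and 147 TPM in AL and 155, 150, 163 and 155 TPM in CR, with a relative change of 0.31 (95% confidence interval 0.19 to 0.43; limma, adjusted p = 0.0717). Cct6b, a form known from testis, had 1.01 to 2.63 TPM in AL and 2.22 to 3.59 TPM in CR. Cct3 was not analysed here.

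The J-domain proteins of the cytosol and nucleus numbered 14 tested genes. At an unadjusted p under 0.05, 6 were relatively higher and 0 relatively lower, against 15.8% and 13.2% of all genes. As deposited 5 of the 14 were lower and 0 higher at the same threshold, against 3491 of 9883 tested genes in either direction. The median relative change was 0.21, and as deposited it was 0.00. Dnajc24, which takes part in making diphthamide on elongation factor 2, was at 25.9, 34.7 and 37.6 TPM in AL and 39.6, 34.4, 36.0 and 38.1 TPM in CR, with a relative change of 0.40 (95% confidence interval 0.12 to 0.68; limma, adjusted p = 0.0924). Dnajc8, a nuclear protein found with splicing factors, had a relative change below 0. It measured 84.7, 100 and 88.7 TPM in AL and 66.3, 70.6, 76.2 and 74.8 TPM in CR, a log2 change of −0.34 ± 0.08 (SE; limma, adjusted p = 0.0259) that was not called without AL3, CR1 or CR2. The relative change of Dnajc8 was −0.12 (95% confidence interval −0.26 to 0.02).

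Mitochondrial members were all J-domain proteins here. Of the 4, 3 were relatively higher at an unadjusted p under 0.05, against 15.8% of all genes. The median change of the 4 was 0.31 as a relative change and 0.09 as deposited. Dnajc19, a subunit of the import motor of the inner membrane, was at 21.8, 20.4 and 21.2 TPM in AL and 21.2, 23.1, 23.0 and 24.8 TPM in CR. Its relative change was 0.32 (95% confidence interval 0.14 to 0.51; limma, adjusted p = 0.0754). Dnajc4, the most abundant of the 4, measured 96.5, 106 and 99.1 TPM in AL and 107, 108, 108 and 101 TPM in CR, and its relative change was 0.29 (95% confidence interval 0.17 to 0.42; limma, adjusted p = 0.0717). Both overlapped between diets as deposited and did not after scaling. Hspd1, Hspe1 and Hspa9 were not analysed here. Of 33 tested cytosolic co-chaperones, heat shock factors and prefoldin subunits 7 were lower on the deposited scale, against 17.6% of all genes. As relative changes 15 were higher and 2 lower (unadjusted p under 0.05), against 15.8% and 13.2%. Bag4, a nucleotide exchange factor of HSP70, was 1 of the 2, at 23.1 to 31.1 TPM in AL and 17.9 to 19.8 TPM in CR (log2 change −0.49 ± 0.10, limma, adjusted p = 0.0196; relative change −0.29). Pfdn5, a prefoldin subunit that hands proteins to CCT, had a log2 change of −0.26 ± 0.05 (SE; limma, adjusted p = 0.0188) and a relative change of −0.04.

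**Figure D3:**
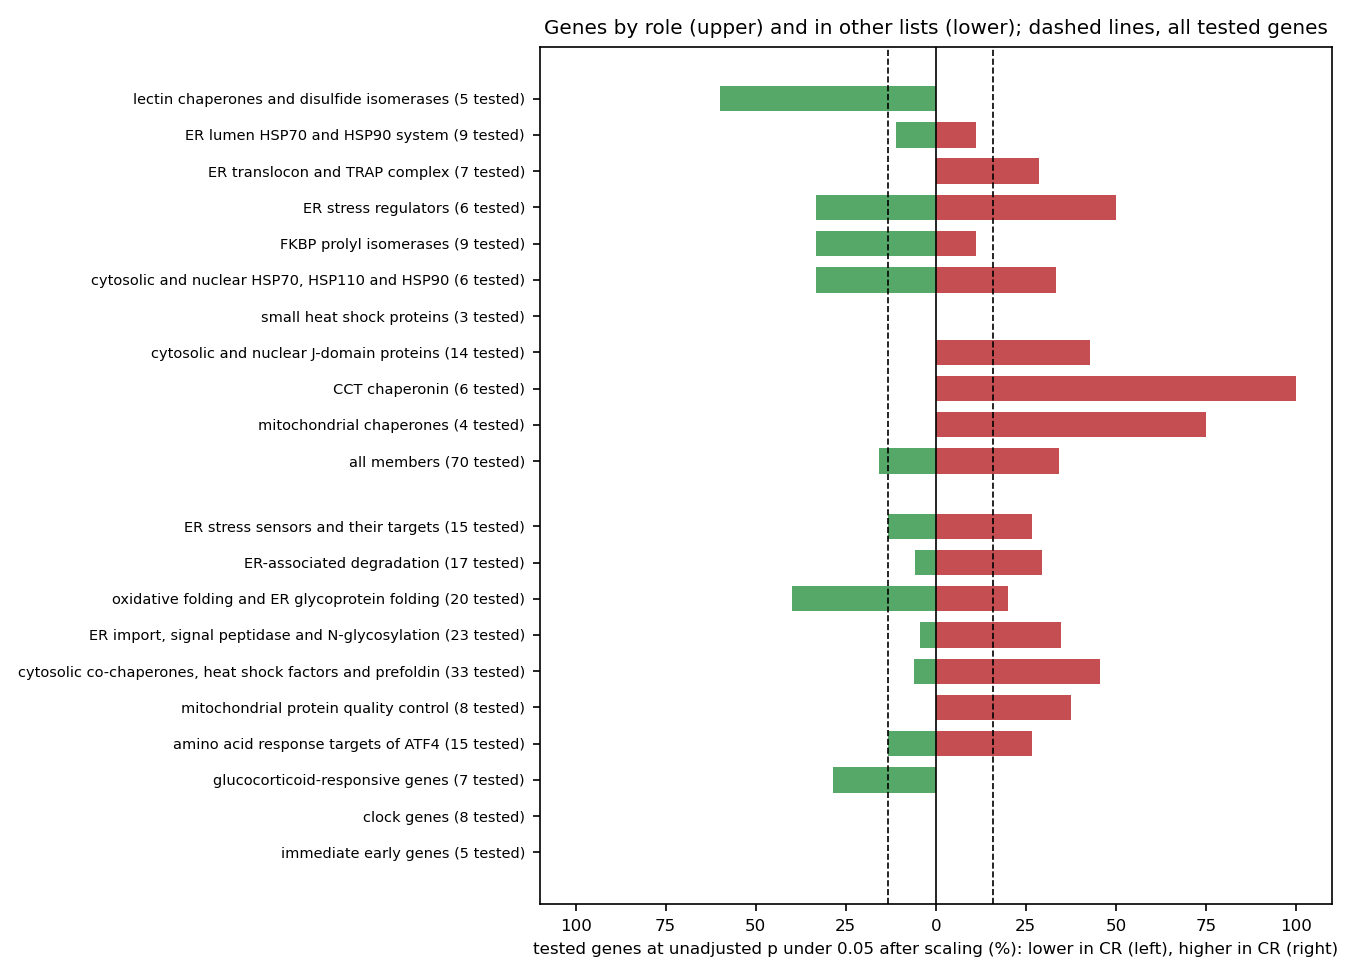
Percent of tested genes in each group that passed an unadjusted p under 0.05 after scaling, with those lower in CR drawn left and those higher drawn right of 0. Dashed lines mark 13.2% and 15.8%, the shares of all tested genes. The CCT bar reaches 100 to the right and the lectin chaperone and disulfide isomerase bar lies on the left only.

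Ratios of 2 genes within a library do not depend on the scaling of that library, and 10 were computed after the values were seen, so they describe these libraries with no test. The ratio of the summed TPM of the lectin chaperones and disulfide isomerases to that of the CCT subunits was 1.85, 2.22 and 1.98 in AL and 1.48, 1.49, 1.52 and 1.55 in CR. Pdia6 to Cct8 was 1.37, 1.51 and 1.39 in AL and 0.891, 0.949, 0.971 and 0.999 in CR. In both ratios every CR library lay below every AL library. Hsp90b1 to Hsp90ab1, the ER HSP90 to the cytosolic one, was 0.270, 0.306 and 0.313 in AL and 0.203, 0.230, 0.218 and 0.193 in CR, although each gene alone overlapped between diets as deposited. After scaling Hsp90b1 still overlapped and Hsp90ab1 did not. Atf6 to Atf6b was 0.445, 0.407 and 0.444 in AL and 0.290, 0.352, 0.336 and 0.353 in CR. Pdia3 to Canx ran from 1.27 to 1.40 in AL and 1.06 to 1.19 in CR, and Calr to Canx from 2.49 to 2.86 in AL and 2.33 to 2.48 in CR, where the nearest libraries almost met. The ratios Herpud1 to Herpud2, Sec61a1 to Sec61a2, Hspa12a to Hspa12b and Fkbp1b to Fkbp1a overlapped between diets.

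**Figure D4:**
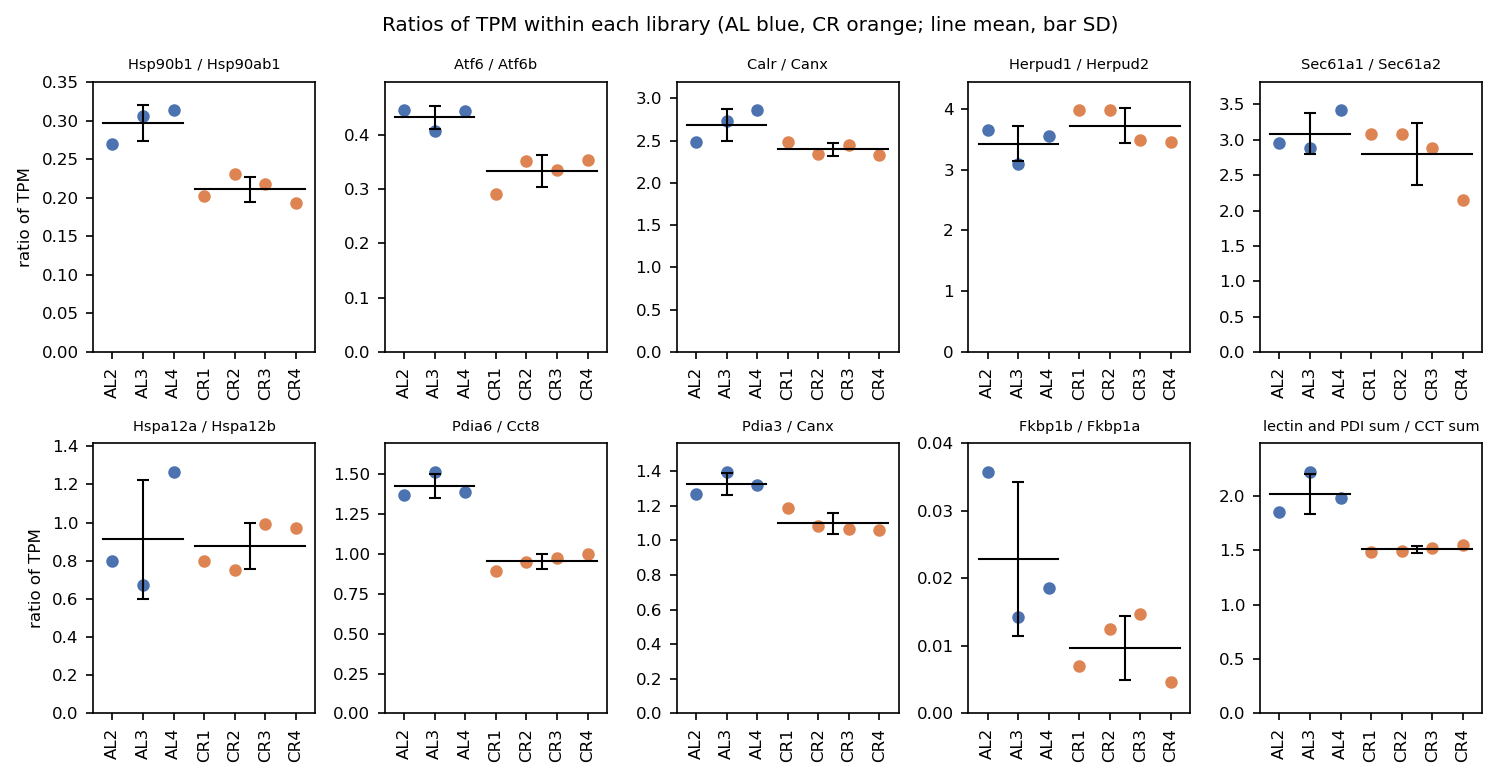
Ratio of TPM of 2 genes or 2 summed groups within each library, 1 panel per ratio, AL libraries in blue and CR libraries in orange, the line at the group mean and the bar 1 SD. The summed ratio is 1.85 to 2.22 in AL and 1.48 to 1.55 in CR.

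The remaining lists were small, and their called counts stand against 17.6% of all tested genes lower on the deposited scale. Of 8 tested clock genes 0 were called, and of 8 tested genes of mitochondrial protein quality control 1 was lower, Htra2, a protease of the intermembrane space (log2 change −0.42 ± 0.11, SE; limma, adjusted p = 0.0404; relative change −0.20). Of 7 glucocorticoid-responsive genes 2 were lower, Nr3c1, the glucocorticoid receptor, at 106 to 126 TPM in AL and 72.9 to 87.7 TPM in CR (log2 change −0.52 ± 0.09, limma, adjusted p = 0.0137; relative change −0.31), and Mt1, a metallothionein (log2 change −0.66 ± 0.13, limma, adjusted p = 0.0181; relative change −0.44). Of 5 immediate early genes 1 was lower, Jun, with a log2 change of −0.48 ± 0.12 (SE; limma, adjusted p = 0.0307) and a relative change of −0.26. At an unadjusted p under 0.05 the relative changes of the mitochondrial list gave 0 lower and 3 higher and those of the glucocorticoid list 2 lower and 0 higher. The shares of all tested genes at that threshold were 13.2% lower and 15.8% higher. Relative changes passed the adjusted threshold for none of the genes of these lists. Of the 77 genes, 7 were below the filter, namely Pdia2, Dnajc22, Fkbp6, Dnajc6, Dnajb8, Hspb3 and Hspb9. Hspbap1, which binds HSPB1 and is no chaperone, was at 1.61 ± 0.106 TPM (SD, n = 3) in AL and 0.908 ± 0.225 TPM (SD, n = 4) in CR and was not called.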

How the data were processed

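Per the labels, TRIzol RNA was made into directional paired-end libraries, for which rRNA depletion as well as poly-A selection is named. Tools in the submitters' processing notes are edgeR 3.38.4, featureCounts 2.0.3, SAMtools 1.17, STAR 2.7.10b and FastQC 0.12.1, with build GRCm39. Neither annotation nor strand setting is given in the sources used here. The authors' deposited table holds TPM by gene and library with an FDR (adjusted p-value) from the authors' own test, the smallest of which was 0.0500 here, so adjusted p-values are over a set without genes below it. Columns were assigned to diets by name, 3 AL and 4 CR where 8 libraries had been assumed. No library was matched to a mouse, so the p-values measure the spread between these libraries.

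Genes reaching 1 TPM in 4 or more libraries were fitted as log2(TPM + 1) with limma 3.58.1 (in R 4.3.3, using statmod 1.5.0), by diet alone, with a variance trend, two-sided p-values and Benjamini-Hochberg adjustment over all 9883 genes. Called means an adjusted p under 0.05. A pseudocount of 1 understates changes of low genes. Relative changes come from the same fit after median-ratio scaling, with size factors of 1.06 to 1.16 in AL and 0.924 to 0.956 in CR. Reads recovered from TPM steps with GENCODE M21 lengths (build GRCm38) were whole within 0.05 for 20832 of 22033 genes judged, those with up to 1000 reads (94.5%), and gave depths of 4147003 to 8896615 reads per library in rows with a length. In the AL library where it had fewest, a tested gene of the set had a median of 616 reads, and 11 genes had under 50 reads in some library. These counts served for a voom fit. M21 gave exon overlaps and RefSeq gave the promoters. Of 119 M21 protein-coding genes that match the symbols, 41 were not analysed here. On simulated data the fit recovered 15 of 67 changes of 1.5 fold without scaling and 12 of 67 with it. For changes of 2 fold the counts were 55 and 57 of 67, so smaller changes can go uncalled. The spread between simulated libraries was set in advance. Python 3.11.15 with pandas 2.3.3, numpy 2.4.6, scipy 1.17.1 and matplotlib 3.10.9 made tables and plots.

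The genes, role groups and lists were chosen with earlier results of these data known. Named were a fixed set of well-known genes where they had a row, all called genes, the most abundant and most changed gene of each role, and up to 2 genes per list with the smallest adjusted p. Genes named for a promoter element, an untested row, a ratio or a sign, and Cct8, were chosen after their values were seen. Alternatives were other pseudocounts, filters, scalings and moderation, voom, and leaving out each library.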

Additional observations from a re-analysis of the deposited data

Results flagged for a closer look

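Of 35 named genes examined in the 4 CR libraries, 5 had 1 library set apart from the other 3 by a gap beyond Dixon's 95% critical value, which chance passes in about 1 in 20 groups. Atf6b was at 52.9 TPM in CR2 and at 56.8 to 57.0 TPM in the other CR libraries. Dnajc4 was at 101 TPM in CR4, below the other 3. Hspa1a was at 2.14 TPM in CR4, above the other 3, and Hspa1b at 2.44 TPM in CR2, below them, with few reads behind both. Hspb2 was at 24.2 TPM in CR1, above the other 3.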

How the results depend on the processing

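The 13 genes called lower became 5 with no filter on low values and 0 after median-ratio scaling, quantile normalization or voom on recovered reads. After these, 11, 12 and 14 genes were lower and 24, 22 and 26 higher at an unadjusted p under 0.05. Leaving out 1 library gave 0 to 12, from 6 to 12 as deposited and 0 with scaling. The other pseudocounts, filters and moderations gave 12 or 13. Over all tested genes the 1742 called lower became 721 with no filter and 0 after either scaling or voom. Leaving out 1 library as deposited gave 650 to 1506 of all tested genes. Genes with a deposited false discovery rate under 0.05 were not among those tested, so a count of 0 cannot show that no gene changed. None of the chaperone and folding genes was called higher in any setting. At an unadjusted p under 0.05, 0 were higher as deposited with all 7 libraries, 4 without AL4, 1 without CR4 and 0 in the other omissions. Canx changed sign after median-ratio scaling (0.01) and voom (0.01), as did Hspb1 (0.02 and 0.02), with omissions from −0.25 to 0.04 and from −0.30 to 0.07. Fkbp9, Hyou1 and Ssr3 changed sign after median-ratio scaling (0.15, 0.09 and 0.10), quantile normalization (0.11, 0.06 and 0.02) and voom (0.15, 0.09 and 0.10), with omissions from −0.10 to 0.18, −0.19 to 0.17 and −0.15 to 0.16. These settings remove the common shift of the deposited scale. No paired analysis was possible because the table's columns carry no mouse number of the labels. Depth limits Fkbp1b, Cct6b, Hspa1a and Hspa1b.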
